A study of Mus musculus with 24 samples.

Results

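The genes described here encode the parts of the proteasome that most cells make at all times, together with the caps and chaperones named with them. A gene was taken as a member when its platform gene symbol starts with Psm, 1 of the letters a to g and a number, and when it is none of the interferon-inducible catalytic genes Psmb8, Psmb9 and Psmb10. That rule used names and no measured value, and it found 44 of the 17097 genes that had a probe set with a single symbol. Of the 44, 42 are subunits, caps, assembly chaperones or the inhibitor PI31, and 2 matched by name only, namely Psmc3ip, a recombination factor, and Psme3ip1, a protein that binds the cap PA28γ. Psmc6, Psmd10 and Psme4 had no probe set with a single symbol and were not analysed here. The levels come from 24 spinal cords, each read on 1 Affymetrix array, as log2 values that the authors made by RMA.

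The arrays came from mice with experimental autoimmune encephalomyelitis (EAE), an inflammatory disease of the central nervous system, and from naive mice. EAE was started by passive transfer of T cells specific for the myelin peptide MOG35-55, which had been polarized in culture either with IL-12 and an antibody to IL-23p19 (Th1 cells) or with IL-23 (Th17 cells). The groups were 5 naive wild-type mice, called unchallenged in the labels, 5 wild-type recipients of Th1 cells, 5 wild-type recipients of Th17 cells, 5 naive mice labelled Act1 ko and 4 recipients of Th17 cells labelled Act1 ko. Recipients were irradiated with 500 rad 4 h before the cells were injected, so irradiation and transferred cells cannot be told apart in any comparison with naive mice, which by the methods were left untreated. By the methods the mice were females of 8 to 12 weeks and recipients were killed 12 days after transfer, while the labels place the collection at the onset of symptoms. The results text of the study places the collection at the peak of disease. Act1, encoded by Traf3ip2, is the adaptor through which the IL-17 receptor signals. The labels describe the recipients as Act1-deficient or wild-type, do not give the genotype of the mice that donated the T cells, and do not describe the Act1 allele.

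The proteasome is the protease that degrades proteins marked with ubiquitin. Its barrel, the 20S core, is built of outer rings of alpha subunits and inner rings of beta subunits, and the catalytic sites lie on the beta subunits encoded by Psmb5, Psmb6 and Psmb7. The 19S regulatory particle caps the barrel and consists of a base with a ring of ATPases (Psmc genes), which unfolds substrates, and a lid (most Psmd genes), which removes ubiquitin. Interferon-γ replaces the catalytic subunits by Psmb8, Psmb9 and Psmb10 to form the immunoproteasome and induces the alternative cap PA28αβ (Psme1 and Psme2), both of which serve the production of peptides for MHC class I, whereas PA28γ (Psme3) caps proteasomes in the nucleus.

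Before the comparisons, the gene named by the genotype was checked. Traf3ip2 stood at 4.29 ± 0.20 (SD, n = 5) on the log2 scale in naive wild-type mice and at 5.56 ± 0.24 (SD, n = 5) in naive mice labelled Act1 KO, so its level was higher, not lower, under the KO label. Where the probe set lies relative to the allele was not analysed here, so this level checks nothing about the label, and the genotypes are used as labelled. Same-group arrays correlated between 0.986 and 0.997 over all genes. The array with the lowest mean correlation with its group, 0.988, was naive Act1 KO array 4. Th1 arrays 4 and 5 had the lowest summed level of 7 proliferation markers in their group, 7.35 and 7.85 against 8.54 to 8.82 in the other Th1 arrays, and the counts of members called in Th1 recipients are also given without them. For arrays, precision is limited by how many there are in a group.

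To find out which proteasome genes differed in the inflamed cord, recipients of Th17 cells and of Th1 cells were each compared with the same 5 naive wild-type mice. The 2 genes of the interferon-inducible cap, Psme1 and Psme2, rose by 6.50-fold and 7.59-fold in Th17 recipients and by 6.45-fold and 7.58-fold in Th1 recipients. Every other called member moved by less: the 11 other members called higher in Th17 recipients rose by 1.14-fold to 1.71-fold, and the 4 called lower fell by 1.19-fold to 1.33-fold. In Th1 recipients the 8 others called higher rose by 1.15-fold to 1.80-fold and the 6 called lower fell by 1.16-fold to 1.27-fold.

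Calls were made by limma at an adjusted p under 0.05, with Benjamini-Hochberg adjustment over all 17097 genes. In Th17 recipients 13 of 44 members were called higher, beside 18.0% of all genes, and 4 were called lower, beside 25.5% of all genes. In Th1 recipients 10 of 44 were called higher, beside 16.7% of all genes, and 6 lower, beside 24.1% of all genes. The Th1 counts were 10 and 4 without Th1 arrays 4 and 5. In that fit 6579 of all 17097 genes were called in either direction, whereas with all arrays 2854 were called higher and 4115 lower. Groups that did not overlap were found for 8 members higher and 3 lower in Th17 recipients, beside 15.0% and 20.0% of all genes, and for 7 higher and 4 lower in Th1 recipients, beside 14.1% and 19.5% of all genes. Of the 17 members called in Th17 recipients and the 16 called in Th1 recipients, 12 were called in both and in the same direction, and both comparisons share their naive arrays. The share of all genes called in both was not examined. The members called only in Th17 recipients were Psma2, Psmb3, Psmb6, Psmc3ip and Psmd12, and those called only in Th1 recipients were Psma7, Psmb7, Psmd1 and Psmd5. None of these 9 was called in the comparison of Th17 with Th1 recipients themselves.

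The small increases depend on how the arrays are put on a common scale. The called decreases kept their sign under each scaling tried. Both centrings lowered all genes in recipients relative to naive mice, so they could not have turned a decrease. With quantile normalization, which could, the called increases kept their sign as well. With each array centred on its own median over genes, which moved the median difference of all genes by -0.26 in Th17 recipients and by -0.25 in Th1 recipients, 5 members were called higher and 21 lower in Th17 recipients, beside 12.4% and 65.6% of all genes, and 3 were higher and 26 lower in Th1 recipients, beside 11.6% and 66.1%. With arrays centred on 67 ribosomal protein genes (median shift of all genes -0.44 and -0.50) the counts were 3 higher and 33 lower in Th17 recipients, beside 9.69% and 78.3% of all genes, and 3 higher and 36 lower in Th1 recipients, beside 8.39% and 81.5%. With quantile normalization they were 13 and 5 in Th17 recipients, beside 15.9% and 32.7% of all genes, and 10 and 6 in Th1 recipients, beside 14.9% and 31.3%. Psme1, Psme2 and Psmg4 were called higher under each of these scalings in both groups of recipients. Differences between members of the same array do not depend on either centring, though they can change with quantile normalization, and they are given below beside the single genes.

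**Figure D1:**
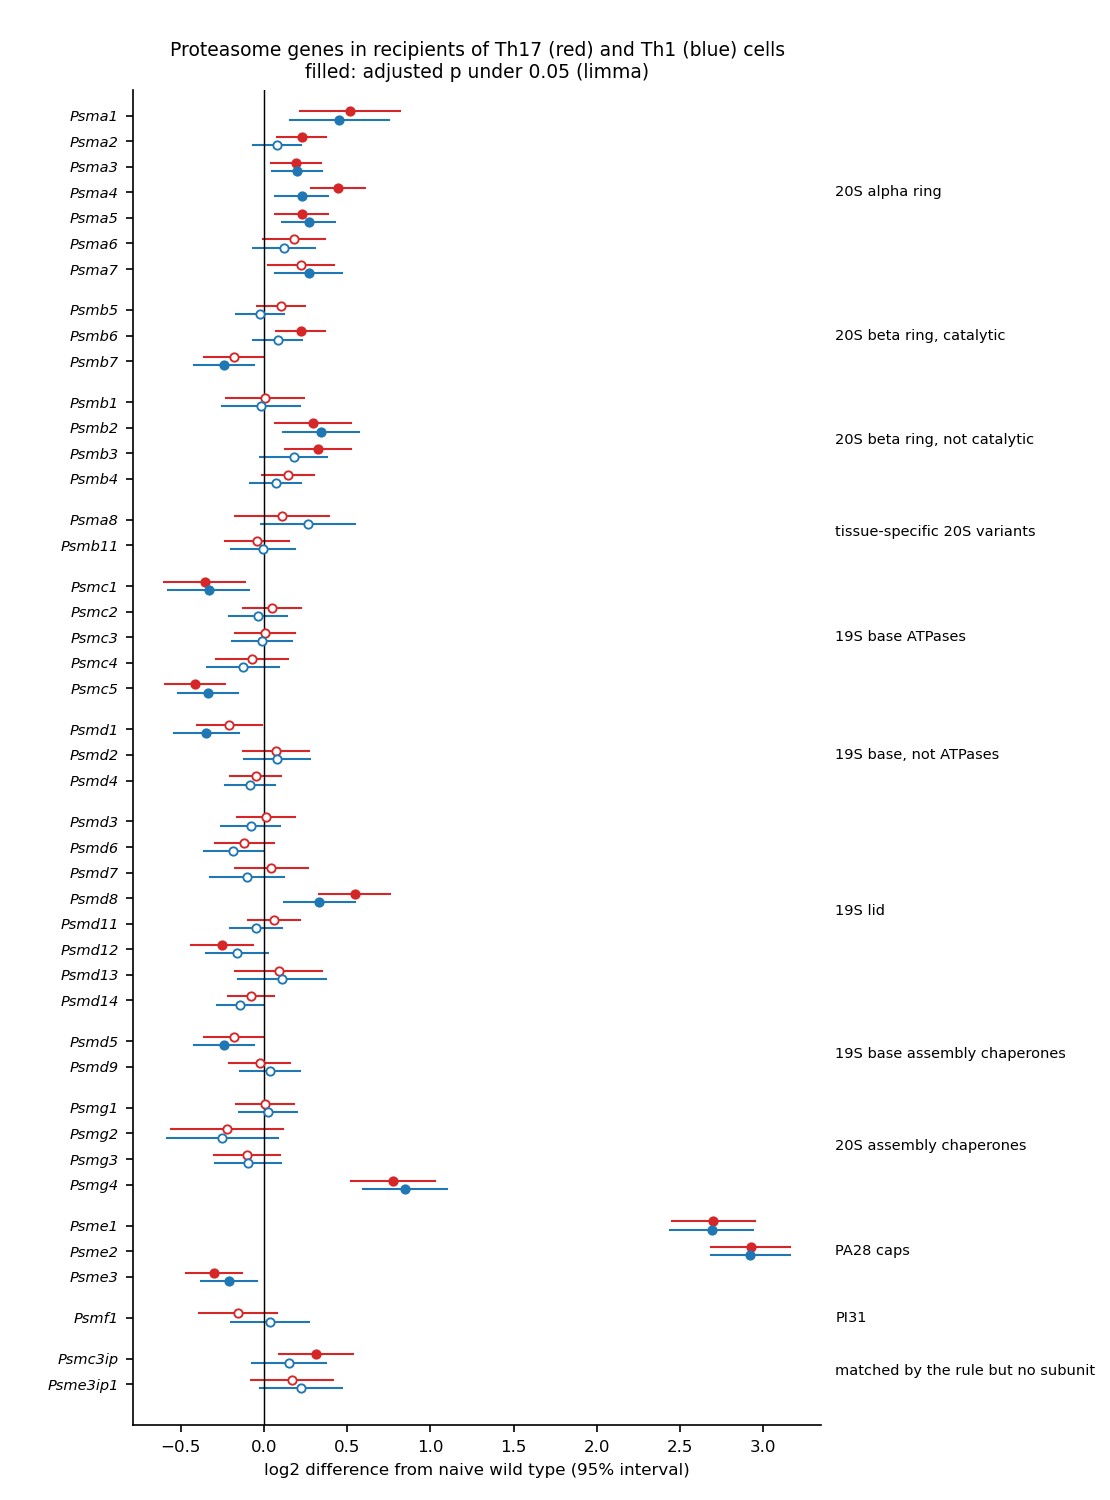
Log2 difference from naive wild-type mice for the 44 members in recipients of Th17 cells (red) and Th1 cells (blue), grouped by role, with 95% intervals from limma (n = 5 arrays a group) and filled points for adjusted p under 0.05. Psme1 and Psme2 stand near 2.7 and 2.9 while all other members lie between -0.41 and 0.85, and most 20S genes lie right of 0 on this scale, while centring on ribosomal protein genes puts most of the called ones left of 0.

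The PA28 caps gave the largest differences. In naive wild-type mice Psme1, which encodes PA28α, had log2 values of 7.18, 7.59, 7.78, 7.33 and 7.58. In Th1 recipients it had 10.03, 10.42, 10.43, 9.91 and 10.11, and in Th17 recipients 10.21, 10.15, 10.13, 10.26 and 10.21. Each of the 10 recipients lay above each naive mouse by more than the spread within any group, and the Th17 recipients were the most alike. The log2 difference was 2.70 ± 0.12 (SE) in Th17 recipients (limma adjusted p = 1.88e-16) and 2.69 ± 0.12 in Th1 recipients (limma adjusted p = 2.23e-16).

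Psme2, the partner PA28β, moved with it. Its values were 6.62, 6.83, 6.72, 6.83 and 6.67 in naive mice, 9.68, 9.74, 9.88, 9.46 and 9.50 in Th1 recipients and 9.73, 9.47, 9.78, 9.70 and 9.60 in Th17 recipients. The groups of recipients overlapped each other and neither overlapped the naive mice. The log2 difference from naive mice was 2.92 ± 0.12 (SE) in Th17 recipients (limma adjusted p = 1.20e-17) and 2.92 ± 0.12 in Th1 recipients (limma adjusted p = 1.31e-17).

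Psme3, which encodes the nuclear cap PA28γ, went the other way. Its values were 7.92, 7.99, 7.88, 8.08 and 7.82 in naive mice, 7.76, 7.66, 7.84, 7.73 and 7.66 in Th1 recipients and 7.52, 7.70, 7.49, 7.79 and 7.70 in Th17 recipients. All Th17 recipients lay below the lowest naive mouse, and the Th1 recipients overlapped the naive mice at the level of Th1 array 3. On the log2 scale the difference from naive mice was -0.30 ± 0.08 (SE) in Th17 recipients (limma adjusted p = 0.00406) and -0.21 ± 0.08 in Th1 recipients (limma adjusted p = 0.0454). The Th17 call held with each array left out in turn. The Th1 call was lost without Th1 arrays 4 and 5 (adjusted p = 0.158) and without any of naive arrays 1, 2 and 4 or Th1 arrays 1, 2, 4 and 5 (adjusted p from 0.0597 to 0.126). That call was also lost with the mean of the probe sets of Psme3 (-0.17, limma adjusted p = 0.0547). A variance trend in the fit (limma adjusted p = 0.0550) and the letter of the title code as a block (limma adjusted p = 0.111) removed it as well.

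**Figure D2:**
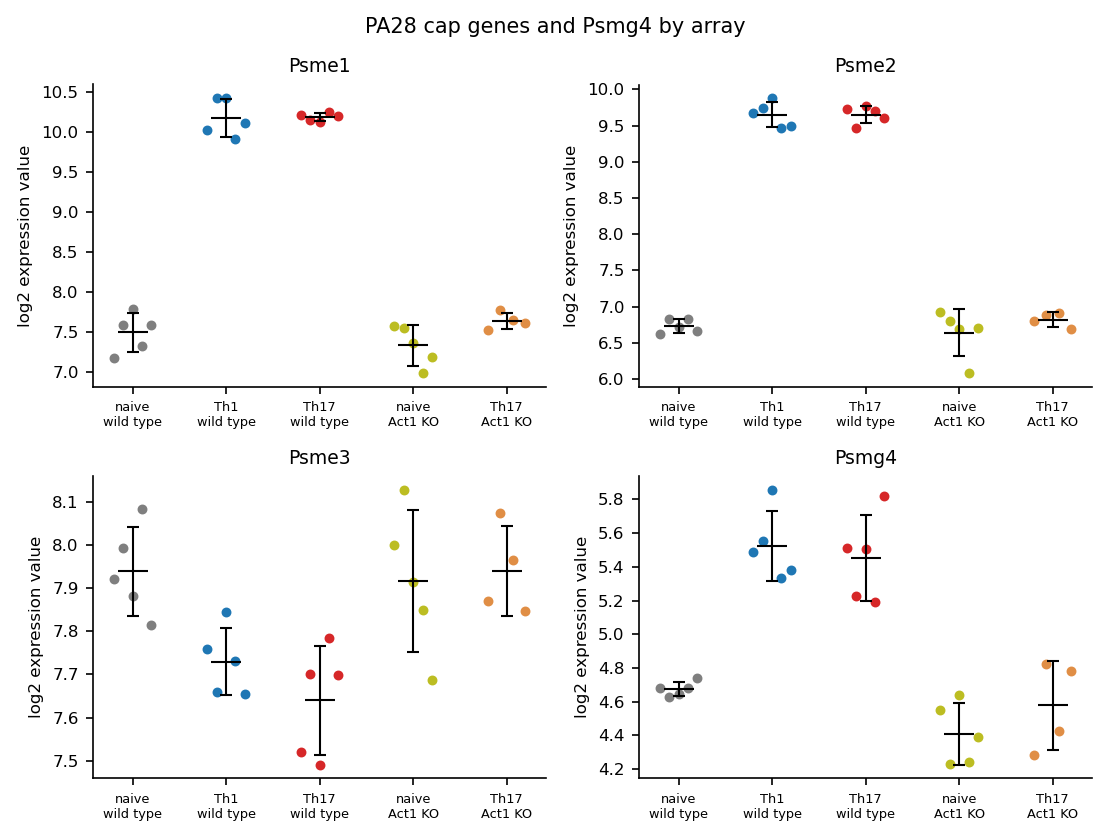
Log2 expression values of Psme1, Psme2, Psme3 and Psmg4 on each of the 24 arrays by group, with the mean and SD as black bars. For Psme1 and Psme2 the 10 wild-type recipients lie between 9.46 and 10.43 and all other mice between 6.08 and 7.78, whereas Psme3 is lower in wild-type recipients. Psme3 stayed lower with quantile normalization, and also with both centrings, which could not have turned a decrease.

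Chaperones help the core to assemble before it is capped, and Psmg4 was the member with the largest increase after the PA28 genes. Psmg4 encodes PAC4, which acts with PAC3 (Psmg3) in building the alpha ring. Psmg4 had values of 4.68, 4.63, 4.65, 4.68 and 4.74 in naive mice, 5.49, 5.56, 5.86, 5.33 and 5.38 in Th1 recipients and 5.51, 5.23, 5.51, 5.19 and 5.82 in Th17 recipients. No recipient overlapped the naive mice. Relative to naive mice its log2 difference was 0.78 ± 0.12 (SE) in Th17 recipients (limma adjusted p = 7.21e-06) and 0.85 ± 0.12 in Th1 recipients (limma adjusted p = 2.47e-06), and under the 3 scalings it lay between 0.34 and 0.66. The other 20S chaperones did not follow: Psmg1 and Psmg2 (PAC1 and PAC2) differed by 0.00 and -0.22 in Th17 recipients, and Psmg3 by -0.10 ± 0.10 (SE), none of which was called.

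Interferon acts on many promoters through the interferon-stimulated response element. A search of RefSeq promoter windows (GRCm38.p6, 250 bases before to 50 after each gene's start) covered 36 of the 44 members. For each motif, a member with more than 1 window, as 4 had, counted as matched if any of its windows matched. The share over all genes is of single windows. The core of that element, read as GAAA, any 2 bases and GAAA again on either strand, is in the windows of 5 of the 36 members, or 13.9%, beside 3.44% of 32851 windows of all genes. The matches are printed because Psme1 and Psmg4, which had the largest increases of all members after Psme2, are among the 5. Each line is 30 bases read 5′ to 3′ on the strand of the gene, with the match in capitals. The motif was chosen after the values had been seen, and a match is only a description of these letters.
Psme1, chr14:55578493-55578522, plus strand: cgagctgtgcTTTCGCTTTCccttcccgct
Psmg4, chr13:34162969-34162998, plus strand: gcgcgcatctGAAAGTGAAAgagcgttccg
Psmb3, chr11:97703261-97703290, plus strand: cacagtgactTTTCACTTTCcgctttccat
Psmd4, chr3:95042675-95042704, minus strand: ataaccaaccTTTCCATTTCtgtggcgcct
Psmd9, chr5:123228021-123228050, plus strand: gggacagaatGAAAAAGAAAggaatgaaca

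The match in Psme1 covers bases 10 to 19 after the start, and that in Psmg4 bases 16 to 25 after it, so both lie at the beginning of the transcribed part. Those in Psmb3, Psmd4 and Psmd9 lie upstream, at bases -163 to -154, -80 to -71 and -159 to -150. Psmb3 was called higher in Th17 recipients, while Psmd4, a ubiquitin receptor of the base, and Psmd9, a base chaperone, were called in neither group. No match is in the windows of Psme2, nor in those of the inducible genes Psmb8, Psmb9 and Psmb10, which rose in both groups of recipients. Of other motifs searched in the same windows, the gamma-activated site core TTCNNNGAA is in 2 of the 36 members (Psmd2 and Psmg1) and in 8.3% of all windows. Of the 3 inducible genes it is in Psmb8 alone.

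In the 20S core, 8 of the 14 genes were called higher in Th17 recipients and 0 lower, beside 18.0% and 25.5% of all genes, with a median log2 difference of 0.22 beside -0.05 over all genes. In Th1 recipients 6 were called higher and 1 lower, beside 16.7% and 24.1% of all genes, with a median of 0.15 beside -0.06 over all genes. The alpha ring, whose subunits form the gate of the barrel, held most of these calls: 5 of its 7 genes were called higher in Th17 recipients and 5 in Th1 recipients, and all 7 had positive differences in both, from 0.18 to 0.52 and from 0.08 to 0.45. Under centring on ribosomal protein genes the differences of the called genes Psma2, Psma3 and Psma5 in Th17 recipients, and of Psma1, Psma3, Psma4, Psma5 and Psma7 in Th1 recipients, turned negative.

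Psma1 had the largest difference of the ring. Its values were 7.22, 7.18, 7.32, 6.87 and 7.24 in naive mice, 7.59, 7.67, 7.85, 7.57 and 7.42 in Th1 recipients and 8.01, 7.50, 7.96, 7.24 and 7.70 in Th17 recipients. The Th1 recipients lay above all naive mice, and Th17 array 4 lay within the naive range. Its difference on the log2 scale was 0.52 ± 0.15 (SE) in Th17 recipients (limma adjusted p = 0.00453) and 0.45 ± 0.15 in Th1 recipients (limma adjusted p = 0.0129). With the letter of the title code as a block the Th1 difference was 0.30 (adjusted p = 0.112).

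Psma4 lay at 9.02 to 9.20 in naive mice, at 9.24 to 9.39 in Th1 recipients and at 9.39 to 9.72 in Th17 recipients, with neither group of recipients overlapping the naive mice. Its log2 difference was 0.45 ± 0.08 (SE) in Th17 recipients and 0.23 ± 0.08 in Th1 recipients (limma adjusted p = 2.93e-05 and 0.0205), and the Th1 call was lost without naive array 1 or Th1 array 2 (adjusted p from 0.0508 to 0.0519). The call for Psma3 was lost in Th17 recipients without naive array 1, 2, 3 or 5 or Th17 array 1, 2 or 5 (adjusted p from 0.0543 to 0.0980), and in Th1 recipients without naive array 1, 2, 3 or 5 or Th1 array 1, 2 or 3 (adjusted p from 0.0547 to 0.0925). That for Psma5 was lost in Th17 recipients without Th17 array 5 (adjusted p = 0.0630). That for Psma7 was lost in Th1 recipients without naive array 4 or 5 or Th1 array 2 or 3 (adjusted p from 0.0520 to 0.0855).

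Of the 4 beta genes without a catalytic site, Psmb2 and Psmb3 were called higher in Th17 recipients, by 0.30 ± 0.11 and 0.32 ± 0.10 (SE) on the log2 scale, and turned to -0.14 and -0.12 under centring on ribosomal protein genes. Psmb2 was also called in Th1 recipients, at 0.34 ± 0.11 (SE). Its Th17 call was lost without naive array 2 or 4 or Th17 array 3 or 5 (adjusted p from 0.0696 to 0.0902). Psmb1 differed by 0.01 and -0.02 and Psmb4 by 0.15 and 0.07 in Th17 and Th1 recipients, and neither was called.

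On the deposited scale the 3 constitutive catalytic genes differed from naive mice by -0.24 to 0.22 and not in the same direction, whereas with either centring the differences of all 3 were negative in both groups of recipients. Psmb5, which carries the chymotrypsin-like site, had values of 8.86, 8.84, 8.93, 9.05 and 8.86 in naive mice, 8.90, 8.92, 8.97, 8.82 and 8.81 in Th1 recipients and 9.04, 8.95, 9.10, 8.92 and 9.05 in Th17 recipients. All 3 groups overlapped. By limma, the log2 difference was 0.10 ± 0.07 (SE) in Th17 recipients (95% interval -0.04 to 0.25) and -0.02 ± 0.07 in Th1 recipients (95% interval -0.17 to 0.12). With arrays centred on their medians it was -0.15 in Th17 recipients (limma adjusted p = 0.0563) and -0.27 in Th1 recipients (limma adjusted p = 0.00176), with ribosomal centring it was -0.33 and -0.52 (limma adjusted p = 3.82e-04 and 1.56e-06), and with quantile normalization 0.15 and 0.03, neither of them called.

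Psmb6, with the caspase-like site, had values of 9.60, 9.61, 9.53, 9.36 and 9.54 in naive mice, 9.51, 9.63, 9.74, 9.60 and 9.59 in Th1 recipients and 9.72, 9.77, 9.72, 9.75 and 9.78 in Th17 recipients. The Th17 recipients lay close together and above all naive mice, and the Th1 recipients overlapped both. Its difference was 0.22 ± 0.07 (SE) in Th17 recipients (limma adjusted p = 0.0132) and 0.08 ± 0.07 in Th1 recipients (adjusted p = 0.393). The call was lost without naive array 4 (adjusted p = 0.0518), and the Th17 difference was -0.03 with arrays centred on their medians and -0.22 with ribosomal centring.

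Psmb7, with the trypsin-like site, ran lower. Its values were 10.22, 10.13, 10.13, 10.13 and 10.36 in naive mice, 9.94, 9.83, 9.96, 9.98 and 10.07 in Th1 recipients and 10.04, 10.07, 9.90, 10.00 and 10.07 in Th17 recipients. No recipient reached the lowest naive value. It was called lower in Th1 recipients, at -0.24 ± 0.09 (SE, limma adjusted p = 0.0298), but not in Th17 recipients, at -0.18 ± 0.09 (adjusted p = 0.106). The Th1 call was lost without naive array 1 or 5 or Th1 array 1 or 2 (adjusted p from 0.0525 to 0.0934) and with the letter of the title code as a block (-0.20, adjusted p = 0.104). The Th17 difference was called with array weights (limma adjusted p = 0.0366), by the methods' t-test (adjusted p = 0.0309), by the exact Mann-Whitney test (adjusted p = 0.0227) and with both centrings (-0.43 and -0.62), but not with quantile normalization (-0.18, limma adjusted p = 0.138) or with that block (-0.17, limma adjusted p = 0.136).

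The inducible counterparts were set against these genes within each array, a difference that centring of an array, by its median or by ribosomal protein genes, cannot change. Quantile normalization can change it and was not applied to it. Psmb8, which takes the place of the Psmb5 product, rose from 3.29 ± 0.25 (SD, n = 5) in naive mice to 9.91 ± 0.27 in Th17 recipients and 10.09 ± 0.14 in Th1 recipients. Psmb9, the counterpart of Psmb6, rose from 3.66 to 9.22 and 9.44, and Psmb10, the counterpart of Psmb7, from 7.36 to 9.84 and 9.93. The naive levels of Psmb8 and Psmb9 lay near the array medians of 3.46 to 3.57, and a difference from such a dim level is a lower bound.

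Relative to the constitutive gene, Psmb8 rose by 6.51 and Psmb9 by 5.34 on the log2 scale in Th17 recipients and by 6.82 and 5.69 in Th1 recipients, and Psmb10 rose by 2.66 and 2.82. In each of these 6 the groups did not overlap, and the exact permutation test of 5 arrays against 5, two-sided, gave its smallest possible p of 0.00794 (adjusted p = 0.0170 over 15 tests). Taking the mean of all probe sets of a gene, the differences of Psmb8 fell to 3.46 and 3.74 and those of Psmb9 to 3.67 and 3.91. The lead of Psmb9 over Psmb6 was smaller in Th17 than in Th1 recipients by 0.36, with no overlap (exact permutation p = 0.00794, adjusted p = 0.0170). The same comparison gave -0.31 for Psmb8 over Psmb5 (exact permutation p = 0.0317, adjusted p = 0.0529) and -0.16 for Psmb10 over Psmb7 (exact permutation p = 0.429, adjusted p = 0.536).

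**Figure D3:**
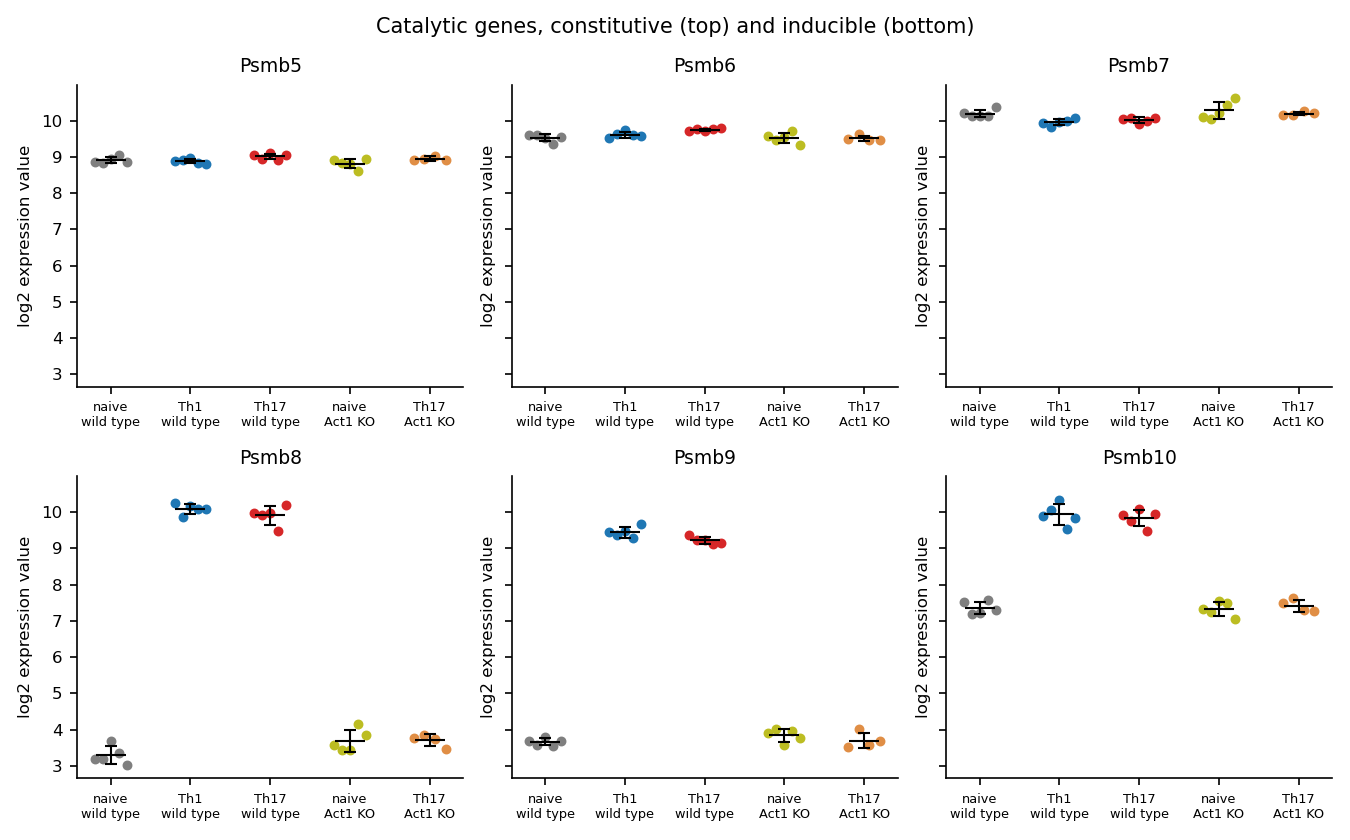
Log2 expression values of the constitutive catalytic genes Psmb5, Psmb6 and Psmb7 (top) and of their inducible counterparts Psmb8, Psmb9 and Psmb10 (bottom) on each array, all panels on the same axis, with the mean and SD as black bars. The top genes stay between 8.60 and 10.61 in all 24 mice, while Psmb8 and Psmb9 lie between 9.12 and 10.24 in the 10 wild-type recipients and between 3.04 and 4.16 in all other mice.

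Constitutive proteasome genes are known targets of the factors Nfe2l1 and Nfe2l2, which bind antioxidant response elements. The core TGACNNNGC of that element, on either strand, is in the promoter windows of 4 of 36 members, or 11.1%, beside 12.4% of all 32851 windows. Those in Psmb5, Psmb6 and Psmd12 are printed because Psmb5 and Psmb6 are the catalytic genes just described and Psmd12 fell in Th17 recipients, with the match in capitals and 30 bases a line on the strand of the gene.
Psmb5, chr14:54618023-54618052, minus strand: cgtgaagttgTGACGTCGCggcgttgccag
Psmb6, chr11:70525338-70525367, plus strand: ctaaagagagTGACGGAGCgctttacgacg
Psmd12, chr11:107479278-107479307, plus strand: tctGCTGTGTCAcatttgcccccctcagac

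These matches lie at bases -47 to -39 in Psmb5, -9 to -1 in Psmb6 and -247 to -239 in Psmd12, the last on the opposite strand, and the match not shown lies at -31 to -23 in Psmd9. In Th17 recipients 1 of the 4 genes was called higher (Psmb6), 1 lower (Psmd12) and 2 were not called. No window was given for Psmb7. Among the other motifs, the ETS core CCGGAAG is in 14 of 36 members, or 38.9%, beside 8.86% of all windows, and the CCAAT box is in 14, or 38.9%, beside 37.4%.

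The 19S regulatory particle genes among the members did not share the increase of the core. Of these 16 measured genes, 1 was called higher and 3 lower in Th17 recipients (median log2 difference -0.02), beside 18.0% and 25.5% of all genes, and 1 higher and 3 lower in Th1 recipients (median -0.09), beside 16.7% and 24.1%. The largest decreases among them were those of the ATPase genes Psmc5 and Psmc1 in Th17 recipients and those of Psmd1, Psmc5 and Psmc1, all of the base, in Th1 recipients. The lid gene Psmd8 was the only one of these 16 called higher in either group. Sem1, a small lid subunit that the naming rule missed, is not among the 16. It was called higher by limma, by 0.62 in Th17 and 0.53 in Th1 recipients.

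Psmc5, an ATPase of the base, had values of 9.94, 9.85, 9.92, 9.85 and 9.99 in naive mice, 9.47, 9.47, 9.63, 9.75 and 9.57 in Th1 recipients and 9.44, 9.54, 9.47, 9.37 and 9.68 in Th17 recipients. All 10 recipients lay below all naive mice. The log2 difference was -0.41 ± 0.09 (SE) in Th17 recipients (limma adjusted p = 3.36e-04) and -0.33 ± 0.09 in Th1 recipients (limma adjusted p = 0.00291), and both calls held with each array left out in turn.

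Psmc1, another ATPase of that ring, fell as well but with more spread. Its values were 9.27, 9.58, 9.82, 9.57 and 9.45 in naive mice, 9.06, 9.33, 9.30, 9.18 and 9.16 in Th1 recipients and 9.35, 9.17, 9.06, 9.12 and 9.20 in Th17 recipients. Naive array 1 lay within the range of both groups of recipients. On the log2 scale the difference from naive mice was -0.35 ± 0.12 (SE) in Th17 recipients (limma adjusted p = 0.0153) and -0.33 ± 0.12 in Th1 recipients (limma adjusted p = 0.0249). The Th17 call was lost without naive array 3 (adjusted p = 0.0599), and the Th1 call without naive array 3, without Th1 array 1 (adjusted p from 0.0655 to 0.0900) or without Th1 arrays 4 and 5 (adjusted p = 0.0939). The ATPase genes Psmc2, Psmc3 and Psmc4 differed by -0.12 to 0.05 in both groups of recipients and were not called.

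Psmd1, the large scaffold of the base, had values of 9.67, 9.87, 9.80, 9.89 and 9.83 in naive mice, 9.41, 9.49, 9.37, 9.53 and 9.54 in Th1 recipients and 9.56, 9.57, 9.69, 9.50 and 9.70 in Th17 recipients. The Th1 recipients lay below all naive mice, and the Th17 recipients overlapped them. It was called lower in Th1 recipients, at -0.34 ± 0.09 (SE, limma adjusted p = 0.00410), and stood at -0.21 ± 0.09 in Th17 recipients (adjusted p = 0.0801). Psmd2, the other large scaffold, differed by 0.07 and 0.08, and the ubiquitin receptor Psmd4 by -0.05 and -0.08, none of them called.

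In the lid, Psmd8 rose and Psmd12 fell. Psmd8 had values of 9.17, 9.40, 9.26, 9.08 and 9.32 in naive mice, 9.61, 9.61, 9.86, 9.30 and 9.50 in Th1 recipients and 9.73, 9.67, 9.76, 10.08 and 9.72 in Th17 recipients. The Th17 recipients lay above all naive mice, while Th1 array 4 lay among the naive values. Relative to naive mice its log2 difference was 0.55 ± 0.10 (SE) in Th17 recipients (limma adjusted p = 7.72e-05) and 0.33 ± 0.10 in Th1 recipients (limma adjusted p = 0.0103), and with ribosomal centring it was 0.11 and -0.16.

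Psmd12, a scaffold subunit of the lid, had values of 8.78, 8.93, 8.86, 8.73 and 8.78 in naive mice, 8.68, 8.80, 8.58, 8.59 and 8.62 in Th1 recipients and 8.84, 8.51, 8.49, 8.47 and 8.51 in Th17 recipients. In Th17 recipients array 1 lay among the naive mice and the other 4 lay below them. Its difference on the log2 scale was -0.25 ± 0.09 (SE) in Th17 recipients (limma adjusted p = 0.0266) and -0.16 ± 0.09 in Th1 recipients (adjusted p = 0.175). The Th17 call was lost without naive array 2 or 3 or Th17 array 2, 3, 4 or 5 (adjusted p from 0.0528 to 0.0711). The other 6 lid genes of the members, Psmd14 with the deubiquitinase site among them, differed by -0.18 to 0.11 in both groups of recipients and were not called.

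**Figure D4:**
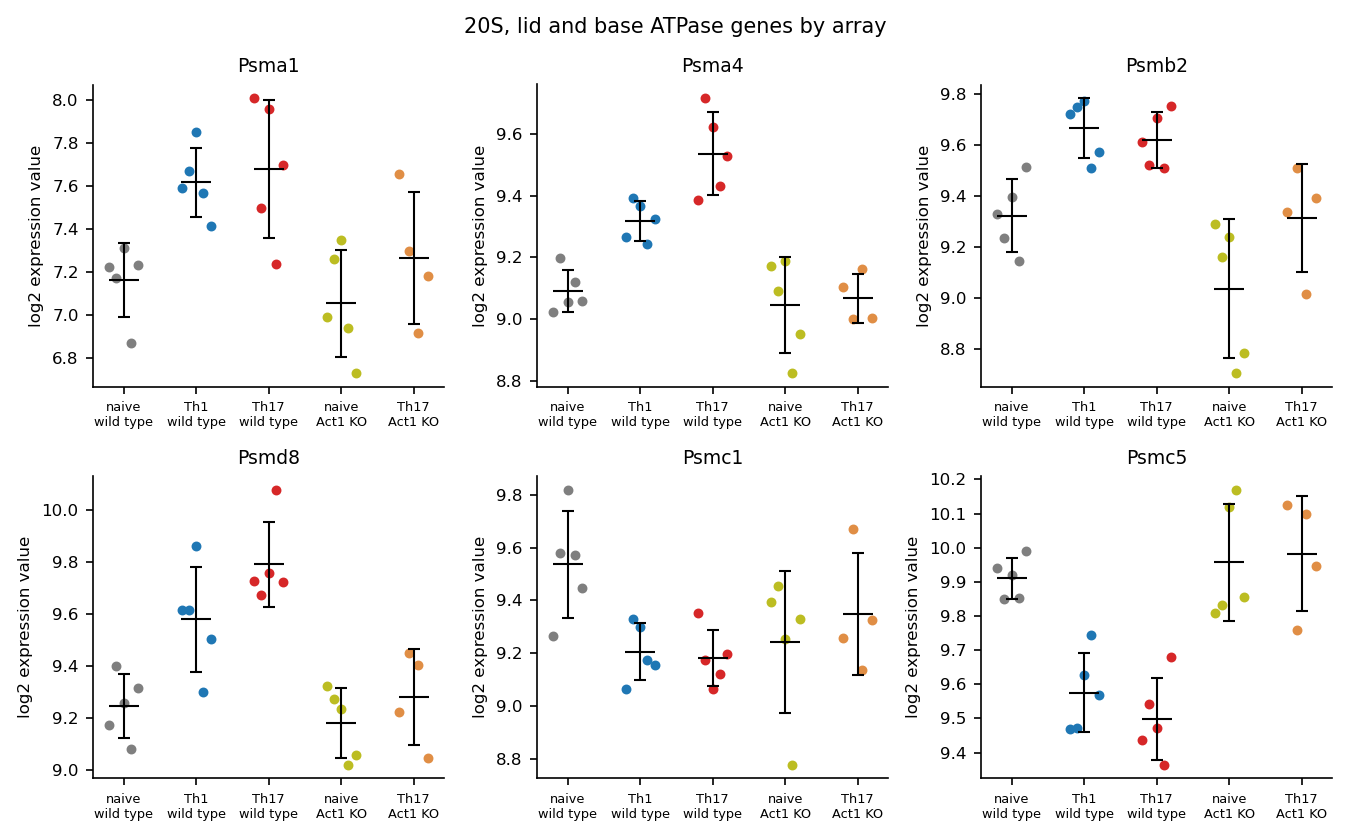
Log2 expression values of the 20S genes Psma1, Psma4 and Psmb2, the lid gene Psmd8 and the base ATPase genes Psmc1 and Psmc5 on each array, with the mean and SD as black bars. On this scale the first 4 are higher and the last 2 lower in wild-type recipients than in naive mice, by -0.41 to 0.55 in Th17 recipients, and the increases of Psma1, Psma4, Psmb2 and Psmd8 in Th1 recipients and of Psmb2 in Th17 recipients turn negative under centring on ribosomal protein genes.

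Of the base chaperones, Psmd5 was called lower in Th1 recipients. Its values were 8.07, 7.91, 7.85, 8.25 and 7.97 in naive mice, 7.81, 7.60, 7.82, 7.73 and 7.90 in Th1 recipients and 7.74, 7.78, 7.78, 7.83 and 8.02 in Th17 recipients. Both groups of recipients overlapped the naive mice. By limma, the log2 difference was -0.24 ± 0.09 (SE) in Th1 recipients (limma adjusted p = 0.0324) and -0.18 ± 0.09 in Th17 recipients (adjusted p = 0.102), and the call was lost without naive array 1 or 4 or Th1 array 2 or 4 (adjusted p from 0.0615 to 0.122). Psmd9 differed by -0.03 and 0.04 and the inhibitor gene Psmf1 by -0.16 and 0.04, without a call.

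The remaining members were close to background or are no subunits. Psma8, an alpha subunit of the testis, and Psmb11, the catalytic subunit of the thymus, had means of 2.76 and 2.84 over all arrays, below every array median, and neither was called. Psmc3ip had a mean of 3.55 in naive mice and 3.86 in Th17 recipients and was called higher there (limma adjusted p = 0.0205), a call lost without naive array 1 or 5 or Th17 array 3 or 5 (adjusted p from 0.0515 to 0.0645). Psme3ip1 differed by 0.17 and 0.23, not called.

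The core and the regulatory particle were then compared within each array. The mean log2 value of the 14 core genes minus that of the 16 regulatory particle genes was taken relative to its naive wild-type mean. This measure leaves out Sem1, was chosen after the values had been seen and is given with no test. It lay at 0.03, -0.06, -0.04, 0.04 and 0.03 in naive mice, at 0.25, 0.25, 0.27, 0.21 and 0.19 in Th1 recipients and at 0.23, 0.28, 0.25, 0.21 and 0.29 in Th17 recipients. Every wild-type recipient thus lay above every naive mouse, and the groups of recipients overlapped each other. The mean was 0.25 ± 0.04 (SD, n = 5) in Th17 recipients and 0.23 ± 0.03 (SD, n = 5) in Th1 recipients. The separation held in all 30 cases when 1 of the 30 genes was left out, which shows only that it did not rest on 1 gene. How often other lists of genes separate these mice in the same way was not examined. Centring of an array adds the same shift to both lists and cannot change it.

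**Figure D5:**
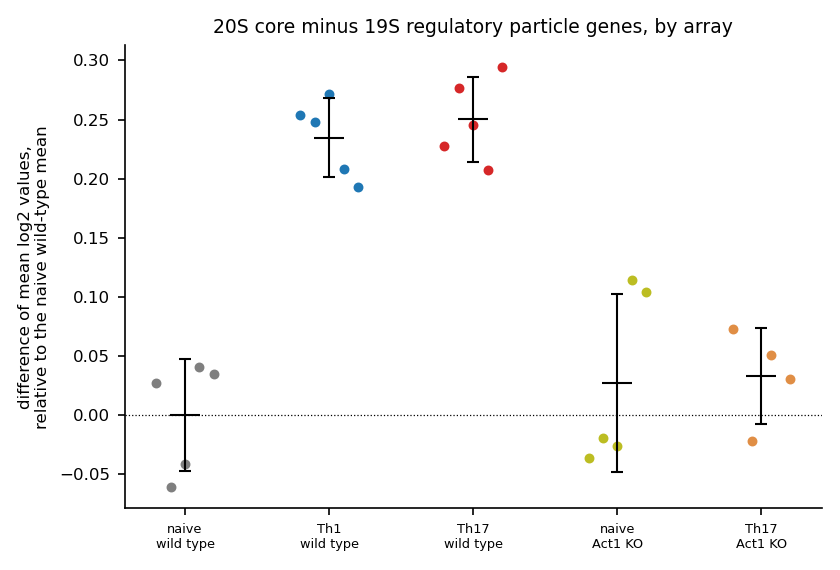
Mean log2 value of 14 core genes minus that of 16 regulatory particle genes on each array, relative to the naive wild-type mean, by group, with the mean and SD as black bars. The 10 wild-type recipients lie between 0.19 and 0.29 and all other mice between -0.06 and 0.11.

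In that measure the mice labelled Act1 KO gave -0.04, -0.02, -0.03, 0.11 and 0.10 when naive and 0.07, -0.02, 0.05 and 0.03 as Th17 recipients. The KO recipients lay within the range of the naive KO mice. All of them lay below all wild-type recipients.

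Th17 and Th1 recipients were next compared with each other, to see whether the kind of transferred T cell mattered for these genes. By limma 0 of 44 members were called higher, beside 1.91% of all genes, and 0 lower, beside 1.09% of all genes. At an unadjusted p under 0.05 there were 3, Psma2, Psma4 and Psmd8, beside 6.28% of all genes higher, and all 3 were higher in Th17 recipients, by 0.15 to 0.22 (limma adjusted p from 0.167 to 0.414). The methods' t-test called 1 member after adjustment, Psmd11 (adjusted p = 0.0315, beside 0.700 by limma), at 0.11 ± 0.08 (SE), and the exact Mann-Whitney test called 0. Psmd11, a lid gene chosen here after its values were seen, was also the only member whose Th17 and Th1 recipients did not overlap, as 1 higher and 0 lower beside 1.93% and 1.36% of all genes. The 95% intervals of all 44 differences lay within ± 0.5 on the log2 scale, from -0.44 at the lowest to 0.42 at the highest. For Psme1 the difference was 0.01 (95% interval -0.24 to 0.26) and for Psme2 it was 0.00 (95% interval -0.23 to 0.24).

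To see whether these genes depended on Act1, the genotypes were compared without and with transfer. In naive mice labelled Act1 KO 0 of 44 members were called higher or lower than in naive wild-type mice by limma, beside 0.164% and 0.421% of all genes. At an unadjusted p under 0.05 there were 4, Psmb2, Psmc1, Psmd13 and Psmg4, beside 4.16% of all genes lower, with differences of -0.30 to -0.26 (limma adjusted p from 0.492 to 0.666), and both the methods' t-test and the exact Mann-Whitney test called 0 after adjustment. Psmb5, Psmb6 and Psmb7 had log2 differences of -0.09 ± 0.07, -0.01 ± 0.07 and 0.09 ± 0.09 (SE). Psme1 and Psme2 differed by -0.16 (95% interval -0.41 to 0.09) and -0.09 (95% interval -0.32 to 0.15). Of the 44 intervals 39 lay within ± 0.5.

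Th17 recipients labelled Act1 KO did not reach the PA28 levels of wild-type recipients. Against naive KO mice 0 of 44 members were called by limma, beside 0% of all genes, with 4 members at an unadjusted p under 0.05, Psma7, Psmb2, Psmc2 and Psme1, beside 3.37% of all genes higher, all 4 higher by 0.22 to 0.31 (limma adjusted p from 0.575 to 0.784). The methods' t-test and the exact Mann-Whitney test called 0 after adjustment. Psme1 had values of 7.58, 7.55, 7.35, 6.98 and 7.18 in naive KO mice and 7.52, 7.77, 7.64 and 7.60 in KO recipients. The groups overlapped, and the difference of 0.31 had a 95% interval of 0.04 to 0.57. Psme2 had values of 6.93, 6.80, 6.70, 6.08 and 6.71 in naive KO mice and 6.81, 6.89, 6.91 and 6.69 in KO recipients. Here too the groups overlapped, with a difference of 0.18 and a 95% interval of -0.07 to 0.43. No KO mouse reached the lowest wild-type recipient, at 9.91 for Psme1 and 9.46 for Psme2.

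The difference between the Th17 responses of the genotypes was tested directly, as the change in KO mice minus the change in wild-type mice. By limma 4 of 44 members were called higher, beside 18.2% of all genes, and 5 lower, beside 13.8% of all genes. The 5 lower ones had all been called higher in wild-type Th17 recipients. The wild-type difference enters this test with its sign reversed, so an opposite sign there is no separate result. Psme2 differed by -2.74 ± 0.17 (SE, limma adjusted p = 3.66e-13), and Psme1 by -2.39 ± 0.18 (limma adjusted p = 1.67e-11). Psmg4 differed by -0.61 ± 0.18, Psmd8 by -0.45 ± 0.15 and Psma4 by -0.42 ± 0.11 (limma adjusted p = 0.00925, 0.0230 and 0.00457). These last 3 calls depended on the scaling. With arrays centred on their medians the differences were -0.36, -0.20 and -0.18 (limma adjusted p = 0.0789, 0.252 and 0.173), and with ribosomal centring they were -0.22, -0.06 and -0.04, none of them called. With quantile normalization Psmd8 and Psma4 kept their calls and Psmg4 stood at -0.42 (limma adjusted p = 0.0672). Psme1 and Psme2 were called lower under each of the 3 scalings.

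Psmg4 lay at 4.55, 4.23, 4.64, 4.24 and 4.39 in naive KO mice and at 4.29, 4.82, 4.43 and 4.79 in KO recipients. Psmd8 lay at 9.32, 9.27, 9.23, 9.02 and 9.05 in naive KO mice and at 9.22, 9.45, 9.40 and 9.05 in KO recipients. In both genes the KO groups overlapped. The call for Psmd8 was lost without wild-type Th17 array 4 or KO Th17 array 4 (adjusted p from 0.0505 to 0.0704), whereas those for Psme1, Psme2, Psmg4 and Psma4 held with each of the 19 arrays left out in turn. With the letter of the title code as a block the differences of Psmg4, Psmd8 and Psma4 were -0.16, -0.36 and -0.49 and were not called (limma adjusted p = 0.689, 0.219 and 0.0655). With the mean of its probe sets Psmg4 stood at -0.27 and was not called (limma adjusted p = 0.0715), the other probe set being dim, with a mean of 2.83.

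On the same wild-type arrays, the 4 higher ones had negative differences in wild-type Th17 recipients, which were called for all but Psmd5. Psmc1 differed by 0.46 ± 0.17 (SE), Psmc5 by 0.44 ± 0.13, Psmd5 by 0.34 ± 0.13 and Psme3 by 0.32 ± 0.12 (limma adjusted p = 0.0402, 0.00923, 0.0408 and 0.0416). Psmc5 lay at 9.81, 9.83, 10.12, 10.17 and 9.86 in naive KO mice and at 10.13, 9.76, 10.10 and 9.95 in KO recipients. It was the only one of the 4 whose call held with each array left out. Psmc1 lay at 9.39, 9.45, 9.25, 8.78 and 9.33 in naive KO mice and at 9.26, 9.67, 9.14 and 9.33 in KO recipients, with array 4 of the naive KO mice far below the others.

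Without that array the difference of Psmc1 was 0.35 (adjusted p = 0.0795), and with the mean of its probe sets it was 0.25 (adjusted p = 0.0724). For Psme3 the mean of its probe sets gave 0.20 (limma adjusted p = 0.147), and its other probe set gave 0.08 ± 0.16 (SE). The Psme3 call was also lost with a variance trend, array weights or only the compared groups in the fit (limma adjusted p from 0.0504 to 0.0841). The call of Psmc1 was lost in 10 of the 19 cases with an array left out, that of Psmd5 in 11 and that of Psme3 in 10, with adjusted p up to 0.118. Psmd5 lay at 7.89, 7.81, 7.97, 7.75 and 7.81 in naive KO mice and at 8.18, 7.83, 8.15 and 7.88 in KO recipients. Psme3 lay at 8.0, 8.13, 7.92, 7.85 and 7.69 in naive KO mice and at 7.87, 8.08, 7.97 and 7.85 in KO recipients. The KO groups overlapped in each of these genes. With array medians as the scale 18 members were called higher and 2 lower, beside 43.1% and 10.2% of all genes, and with ribosomal centring 28 and 2, beside 59.0% and 8.57%.

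Other genes of the pathway were described from lists of assembly factors, partners and regulators. Of 11 measured of 18 assembly factors, receptors and partners, 2 were called higher and 6 lower in Th17 recipients, beside 18.0% and 25.5% of all genes, and 2 higher and 5 lower in Th1 recipients, beside 16.7% and 24.1%. Pomp, which drives maturation of the core, rose by 0.30 ± 0.08 and 0.22 ± 0.08 (SE), and Sem1, a small lid subunit, by 0.62 ± 0.18 and 0.53 ± 0.18. The deubiquitinase Uchl5 fell, at -0.60 ± 0.14 and -0.68 ± 0.14, as did the ubiquitin shuttles Ubqln1, at -0.55 ± 0.07 and -0.44 ± 0.07, and Ubqln2, at -0.52 ± 0.11 and -0.50 ± 0.11, and the ligase Ube3c, at -0.41 ± 0.08 and -0.60 ± 0.08. All of these passed limma's adjusted threshold, in Th17 and Th1 recipients respectively.

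Of the factors that control transcription of proteasome genes 3 of 5 were measured. Nfe2l2, the factor of the oxidative stress response, rose by 1.62 ± 0.11 and 1.67 ± 0.11 (SE, limma adjusted p = 1.13e-12 and 6.73e-13), and its Th17 response differed between the genotypes by -1.39 ± 0.16. Ngly1, which activates Nfe2l1, was lower at -0.23 ± 0.08 and -0.26 ± 0.08. Nfe2l1 was called lower in Th1 recipients, at -0.23 ± 0.09, and not in Th17 recipients, at -0.20. Of the ubiquitin genes 1 of 6 was measured, Uba6, which was not called.

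Fixed lists of cell type markers were described next. The shares of all genes called higher and lower were 18.0% and 25.5% in Th17 recipients. In Th1 recipients they were 16.7% and 24.1%. All 11 monocyte and macrophage markers were called higher in Th17 recipients, with a median log2 difference of 4.76, and in Th1 recipients, with a median of 4.28, and their summed level ran from 7.60 to 7.73 in naive mice, 11.97 to 12.39 in Th17 recipients and 11.99 to 12.26 in Th1 recipients. All 8 measured T cell markers and all 7 measured proliferation markers were also called higher in both, as were 5 of 5 neutrophil markers in Th17 recipients and 4 in Th1 recipients. The summed neutrophil markers ran from 5.50 to 5.99 in naive mice, 7.52 to 8.47 in Th1 recipients and 9.44 to 10.47 in Th17 recipients, so the groups of recipients did not overlap in them. Of 9 measured neuron markers 8 were called lower in Th17 recipients and 9 in Th1 recipients, and of 9 measured oligodendrocyte markers 8 were called lower in both, the medians lying between -0.65 and -0.74. Other lists were mixed. Of 4 measured homeostatic microglia markers 2 were called higher and 2 lower in both groups of recipients. Of 8 astrocyte markers 4 were higher and 3 lower in Th17 recipients, and 3 and 3 in Th1 recipients. Of 5 endothelium markers 2 were higher and 1 lower in both. None of 3 measured B cell markers was called, nor was the 1 measured oligodendrocyte precursor marker. Summed neuron and oligodendrocyte markers stood at 13.30 to 14.37 on every array, as in tissue of the central nervous system. No marker particular to the spinal cord was examined.

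In Act1 KO recipients of Th17 cells no marker of any list was called, beside 0% of all genes. Their summed monocyte and macrophage markers ran from 7.65 to 7.88, beside 7.58 to 7.81 in naive KO mice. In bulk tissue, fewer cells of a type and less RNA per cell cannot be told apart, and the part of cell content in the differences of the proteasome genes was not tested.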

How the data were processed

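RNA from 24 spinal cords was measured on Affymetrix 3′ arrays, 1 array a mouse. The authors deposited log2 expression values of 45118 probe sets made by RMA, which corrects background, brings arrays to a common distribution and summarises probes. The sources used here name neither the RMA version nor the set of arrays it was run on. A shift of all genes in a group would therefore not be visible. The platform annotation gives 1 gene symbol to 28898 probe sets, several to 551, and does not list 15669. Each of 17097 genes was represented by its single-symbol probe set of highest mean. All 24 arrays were fitted together by limma 3.58.1 (lmFit and eBayes, R 4.3.3), two-sided, without a block, adjusted by Benjamini-Hochberg over all genes. The fit was tested on simulated data. Pairs of genes were tested by exact permutation of arrays.

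Groups and replicate numbers came from the sample titles. The limma p-values set a difference against the spread between mice within groups, estimated from all 5 groups together and moderated across genes. The permutation p-values use only the 2 groups compared. Members, gene lists and tests were chosen with earlier results of these data known. Values on every array are given for Psmb5 to Psmb7, Psme1 to Psme3 and, per comparison, up to 4 called members with the largest increase and 4 with the largest decrease. Any other name, and all motifs but TGACNNNGC, was chosen after its values were seen. Alternatives covered the choice of probe set, a filter on dim genes, scaling, variance model, array weights, groups in the fit, blocks, tests, a 2-fold threshold and left-out arrays. Promoter windows are those of RefSeq on GRCm38.p6.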

Additional observations from a re-analysis of the deposited data

Results flagged for a closer look

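Of 220 groups of arrays examined, 5 groups by 44 members, 12 held an array that lay far from the others of its group, measured by the gap to its nearest neighbour over the range of the group. Chance marks about 1 in 20 groups in this way. In wild-type Th17 recipients, Psma5 stood at 8.856 on array 5 against 8.625 to 8.669 on the others, Psmc2 at 9.317 on array 2, Psmd12 at 8.838 on array 1 and Psmd8 at 10.077 on array 4. In naive wild-type mice, Psma8 stood at 2.900 on array 4, Psmb3 at 9.881 on array 3 and Psmg3 at 5.575 on array 3. In mice labelled Act1 KO, array 4 of the naive mice stood apart for Psmb3 at 10.414, Psmd12 at 8.438 and Psme2 at 6.082, array 1 of the Th17 recipients for Psmc3ip at 3.178 and array 2 of them for Psme3ip1 at 7.623.

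For 9 members the Th17 response differed between the genotypes by limma, as change in mice labelled Act1 KO minus change in wild-type mice on the log2 scale. It was lower in the KO for Psme2 (-2.7446), Psme1 (-2.3945), Psmg4 (-0.6078), Psmd8 (-0.4462) and Psma4 (-0.4234), and higher for Psmc1 (0.4612), Psmc5 (0.4369), Psmd5 (0.3438) and Psme3 (0.3229). Over all genes 13.8% were called lower and 18.2% higher in the same test.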

How the results depend on the processing

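Counts of members called higher and lower were 13 and 4 in Th17 recipients, 10 and 6 in Th1 recipients and 4 and 5 for the genotype difference. With arrays centred on their medians they were 5 and 21, 3 and 26, and 18 and 2, and with ribosomal centring 3 and 33, 3 and 36, and 28 and 2. At 2-fold or more they were 2 and 0, 2 and 0, and 0 and 2. With array weights 7 were lower in Th17 recipients and 2 higher for the genotype difference, with the compared groups alone in the fit 1 was higher for it, and with the title letter as a block 2 were higher and 2 lower. The methods' t-test called 1 member higher in Th17 than in Th1 recipients. With each array left out in turn, 9 to 14 were higher and 2 to 4 lower in Th17 recipients (2 without naive array 3), 7 to 10 and 3 to 6 in Th1 recipients (3 lower without naive array 1 or Th1 array 1 or 2), and 1 to 4 and 4 to 6 for the genotype difference (1 higher without naive array 4, Th17 array 3 or naive KO array 4). The remaining comparisons kept 0 calls. The cause of these moves was not tested. The shares of all genes called are given above for the main counts and for both centrings. For the other settings of this paragraph they are not given, so those counts cannot set the members apart from genes in general.

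Single differences turned sign mostly under scaling. With median centring in Th17 recipients Psma2 was -0.029, Psma3 -0.061, Psma5 -0.028, Psmb5 -0.15 and Psmb6 -0.034, and in Th1 recipients Psma3 was -0.050, Psma4 -0.021 and Psmb6 -0.16. With ribosomal centring in Th17 recipients Psma2 was -0.21, Psma3 -0.24, Psma5 -0.21, Psmb2 -0.14, Psmb3 -0.12, Psmb5 -0.33, Psmb6 -0.22 and Psmc3ip -0.13. In Th1 recipients Psma1 was then -0.041, Psma3 -0.30, Psma4 -0.27, Psma5 -0.23, Psma7 -0.23, Psmb2 -0.15, Psmb6 -0.41 and Psmd8 -0.16. Psmb5 in Th1 recipients, at -0.02, became 0.025 with quantile normalization and 0.023 without Th1 arrays 4 and 5, and ran from -0.044 to 0.014 with 1 array left out, the only positive value being that without naive array 4.

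With the mean of all probe sets the lead of Psmb8 over Psmb5 was 3.46 in Th17 and 3.74 in Th1 recipients, and that of Psmb9 over Psmb6 3.67 and 3.91. These leads otherwise stayed at 6.45 to 6.60, 6.76 to 6.91, 5.29 to 5.37 and 5.63 to 5.73 with 1 array left out, and those of Psmb10 over Psmb7 at 2.57 to 2.75 and 2.72 to 2.92. The core minus regulatory measure stayed at 0.23 to 0.26 and 0.22 to 0.25. With the replicate number as a block, 17 of 17 Th17 calls, 16 of 16 Th1 calls and 8 of 9 genotype calls were kept. Psme3 was lost (0.30, adjusted p = 0.0609). With the title letter as a block 17 of 17, 11 of 16 and 4 of 9 were kept. Same-numbered arrays had correlations of residuals from -0.29 to 0.44 (median 0.04), beside -0.39 to 0.46 (median 0.01) for arrays of different numbers. These ranges show no sign that the numbers pair the mice, but they cannot exclude it.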
